A study of Mus musculus with 10 samples.

Results

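Monocyte-derived and profibrotic macrophages are followed in kidney disease by a short set of marker genes, and 9 of them were examined in obstructed mouse kidneys. The genes were taken by name: Ly6c2 and Chil3 as markers of infiltrating monocytes, Siglec1 as the marker of sialoadhesin-positive macrophages, and Spp1, Gpnmb, Trem2, Fabp5, Cd9 and Lgals3 as markers of scar-associated macrophages. They are 9 of 54532 genes in the deposited table, and each name matched a single gene. All kidneys came from male wild-type C57BL/6 mice with unilateral ureteral obstruction (UUO), performed at 8 weeks of age and ended by sacrifice on day 14. In UUO the ureter of a single kidney is tied off, and that kidney becomes inflamed and scarred. Mice received intraperitoneal injections of dimethyl malonate (DMM), an inhibitor of succinate dehydrogenase, at 40 mg/kg every other day, or PBS in its place. Bulk RNA sequencing was done on 5 PBS-treated and 5 DMM-treated kidneys, and the comparison asks how DMM changed gene expression in the obstructed kidney. Every kidney analysed here was obstructed, so the values show DMM against PBS within UUO and not the effect of UUO itself.

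In an injured kidney, monocytes that carry the Ly6C antigen leave the blood, enter the interstitium and mature into macrophages. Some of these cells take up dying cells and lipid and come to express TREM2, CD9, osteopontin (Spp1) and other genes of a scar-associated programme, which has been described in fibrotic liver, lung and kidney. Several of the genes are not limited to macrophages: injured and distal tubular epithelium makes osteopontin, CD9 and galectin-3 (Lgals3), and neutrophils can make chitinase-like 3 (Chil3). In bulk tissue, fewer cells of a type and less RNA per cell cannot be told apart, and the cell of origin is not read. By flow cytometry the study reported unchanged monocytes, macrophages and neutrophils with DMM in UUO kidneys, and fewer CD4+ T cells and NK cells. Whether the sequenced kidneys were among those counted is not given in the sources used here.

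PBS libraries held 16457495 to 18078777 counts each, with a median of 17825223, and DMM libraries 15722527 to 19475833, with a median of 16794390. Some libraries stood apart. The group means that the authors deposited are weighted sums over 8 libraries, and the weight is 0 for PBS replicate 3 and for DMM replicate 1. The methods state 5 replicates, and no reason for the weights is given in the sources used here. DMM replicate 4 held 20029 genes with a count, against 22898 to 24083 in the other libraries. Its TMM scaling factor in edgeR was 0.8516, against 0.9811 to 1.0462 in the others. The mitochondrial genome gave 2.143%, 2.301%, 3.659%, 1.967% and 2.004% of counts in PBS replicates 1 to 5 and 2.297%, 3.79%, 4.025%, 5.618% and 4.39% in DMM replicates 1 to 5. Among the 8 libraries with weight this share was higher in every DMM kidney than in any PBS kidney, and its relation to the calls was not tested. Values are therefore given over all 10 libraries and over the 8 libraries with weight, and DMM replicate 4 is named beside results that lean on it. Normalized counts are the CPM of edgeR, in which each count is divided by the TMM-scaled size of its library, and a gene was called when edgeR's quasi-likelihood test gave a Benjamini-Hochberg adjusted p under 0.05 with a fold change above 1.5.

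Over all 10 libraries, the main set, none of the 9 genes was called. Over the 8 libraries, Ly6c2 and Siglec1 were called lower in DMM kidneys, by 7.21-fold and 4.22-fold, and the other 7 genes were not called. The genes of the scar-associated group had log2 fold changes from -1.49 for Gpnmb to 0.30 for Spp1 over the same libraries. DMM replicate 1 had Ly6c2 and Siglec1 at the level of PBS kidneys, and without this library alone both were called lower. Leaving out a library that lies on the other group's side narrows the spread within its group. How the 8 libraries were chosen is not known, so their p-values cannot be read as those of groups fixed beforehand. All 9 genes passed the filter on low counts in both sets.

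The counts of members stand beside those of all tested genes as follows. Over the 8 libraries, 2 of the 9 members were called lower, as were 3.56% of all 16550 genes tested. None of the 9 members was called higher, where 2.73% of tested genes were. When DMM replicate 4 or DMM replicate 5 was left out of the 8 libraries, 3 members were called lower, with Gpnmb added, beside 1281 of 16828 tested genes without DMM replicate 4 and 302 of 16891 without DMM replicate 5. With p under 0.05 before adjustment and a fold change above 1.5, Ly6c2, Siglec1, Gpnmb and Fabp5 were lower, 4 of 9 members against 7.24% of tested genes. For 2 members, Ly6c2 and Siglec1, every DMM value lay below every PBS value, as for 10.6% of tested genes, and for 0 members every DMM value lay above, as for 9.45%. Over all 10 libraries edgeR called 0 members lower and 0 higher, as it did for 0.0% of 16505 tested genes in the lower and 0.0% in the higher direction. DESeq2 called 36 genes lower and 14 higher over these 10 libraries, and none of the members. By the same threshold before adjustment, Ly6c2, Siglec1 and Fabp5 were lower over the 10 libraries, 3 members against 4.11% of tested genes (678), and 315 tested genes were higher. Groups of 5 that did not overlap, with DMM lower, were found for 0 members and for 1.16% of tested genes. The median log2 fold change of the members was -0.52 over 8 libraries and -0.23 over 10, against 0.02 for all tested genes in each set. The direction was negative for 7 of the 9 members in both sets, with Spp1 and Chil3 as the exceptions.

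**Figure D1:**
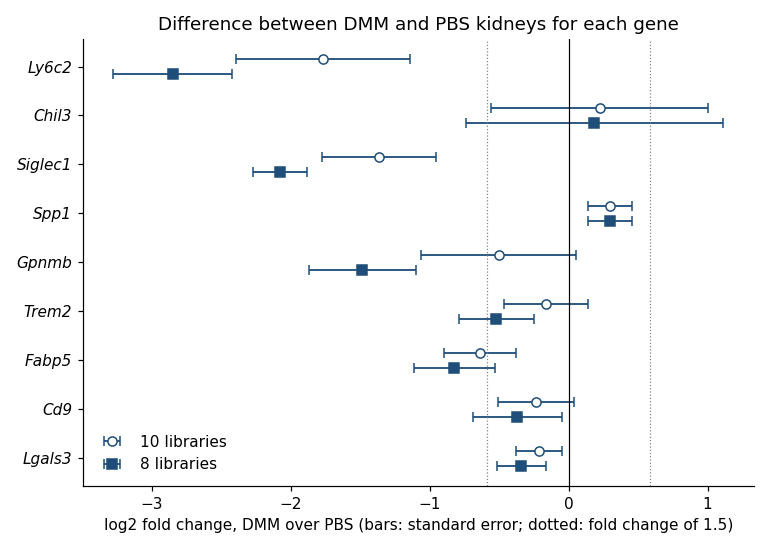
Log2 fold change of DMM over PBS for each of the 9 genes, with bars for the standard error, over all 10 libraries (open circles) and over the 8 libraries with weight in the authors' group means (filled squares). Ly6c2 at -2.85 and Siglec1 at -2.08 lay farthest from 0 over the 8 libraries, and Ly6c2 and Gpnmb differed most between the sets, at -1.77 and -0.50 over 10 libraries and at -2.85 and -1.49 over 8.

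Ly6c2 encodes the Ly6C surface antigen by which inflammatory monocytes are recognised. Its normalized counts were 18.3, 9.65, 21.3, 27.7 and 26.8 CPM in PBS replicates 1 to 5 and 19.01, 5.10, 1.98, 2.23 and 2.13 CPM in DMM replicates 1 to 5. DMM replicates 3, 4 and 5 sat close together at the bottom, DMM replicate 2 was between them and the lowest PBS kidney, and DMM replicate 1 was in the middle of the PBS range. Without DMM replicate 1 and PBS replicate 3 the groups did not overlap. Over those 8 libraries PBS kidneys averaged 20.6 ± 8.46 CPM (SD, n = 4) and DMM kidneys 2.86 ± 1.50 CPM (SD, n = 4), a log2 fold change of -2.85 (standard error 0.43, edgeR adjusted p = 0.00713). Averages of all 10 libraries were 20.8 ± 7.33 CPM (SD, n = 5) for PBS and 6.09 ± 7.34 CPM (SD, n = 5) for DMM, with a log2 fold change of -1.77 (standard error 0.63, edgeR adjusted p = 0.387). Leaving out DMM replicate 1 alone gave -2.86 (edgeR adjusted p = 0.00306). Over all alternatives tried, the adjusted p ranged from 0.00306 to 0.702 for the 10 libraries and from 5.35e-10 to 0.171 for the 8.

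Ly6c2 lies on chromosome 15 (mm10, 75108158 to 75111970, minus strand) beside its close relative Ly6c1, which is strongly expressed by endothelium. Of the 100-base stretches in its transcripts, 5.81% also occur in transcripts of Ly6c1, which is a share of sequence and not of reads. Ly6c1 was at 172, 88.7, 146, 159 and 166 CPM in PBS and at 129, 65.5, 59.7, 23.5 and 71.5 CPM in DMM replicates 1 to 5. It was far more abundant than Ly6c2 and was also called lower over the 8 libraries, with a log2 fold change of -1.41 (edgeR adjusted p = 0.0424) and -1.07 over 10 (edgeR adjusted p = 0.385). How much Ly6c1 contributes to the counts of Ly6c2 was not tested. Counting Ly6c1, 3 of 5 tested relatives in the Ly6 family were called lower over the 8 libraries, the others being Ly6e and Ly6i, and the median log2 fold change was -1.41 over 8 libraries and -1.07 over 10.

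Other genes by which monocytes are recognised were not alike. Ccr2, the chemokine receptor that brings monocytes out of the marrow, was at 115, 90.4, 84.7, 101 and 117 CPM in PBS and at 93.2, 90.1, 54.1, 116 and 64.3 CPM in DMM replicates 1 to 5. The groups overlapped, and DMM replicate 4 was within the upper part of the PBS range, unlike its place for Ly6c2. For Ccr2 the log2 fold change was -0.39 over 8 libraries (edgeR adjusted p = 0.370) and -0.29 over 10 (edgeR adjusted p = 0.572). Itgam (CD11b) likewise was not called, at -0.33 and -0.27. In the list of monocyte genes, 4 of 20 tested were called lower and 1 higher over the 8 libraries, with a median log2 fold change of -0.42 over 8 libraries and -0.29 over 10. Ms4a4c led the lower ones: PBS kidneys averaged 56.7 ± 14.6 CPM (SD, n = 4) and DMM kidneys 6.48 ± 0.962 CPM (SD, n = 4), a log2 fold change of -3.13 (edgeR adjusted p = 0.000146) and of -1.89 over 10 libraries (edgeR adjusted p = 0.385). Among genes for monocyte recruitment and growth, 4 of 17 tested were called lower over the 8 libraries, Csf1 and Ccl12 among them, with log2 fold changes of -1.02 and -1.73.

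Chil3 (Ym1), a secreted chitinase-like protein of monocytes, neutrophils and alternatively activated macrophages, did not follow Ly6c2. It was at 0.159, 1.53, 1.63, 9.15 and 2.24 CPM in PBS replicates 1 to 5 and at 2.28, 0.819, 5.72, 5.74 and 2.61 CPM in DMM replicates 1 to 5. PBS replicate 1 rested on 3 reads and PBS replicate 4 on 172, so that the PBS kidneys alone spanned the whole range of the gene, with the DMM kidneys inside it. Its log2 fold change was 0.22 over 10 libraries (standard error 0.78, edgeR adjusted p = 0.916) and 0.19 over 8 (standard error 0.93, edgeR adjusted p = 0.930), and its sign turned when any of several libraries was left out. The gene shares 4.93% of its 100-base transcript stretches with other genes, most of them with Chil4, which had at most 0.48 CPM in any library. PBS replicate 4, the highest kidney for Chil3, was also the highest for the list of neutrophil genes, whose summed level was 33.998, 34.2, 28.6, 157 and 49.999 CPM in PBS and 73.0, 22.0, 35.7, 140.1 and 32.5 CPM in DMM replicates 1 to 5. Of that list 8 of 11 genes were tested and none was called, with a median log2 fold change of -0.24 over 8 libraries and 0.21 over 10, and its most abundant gene was Csf3r. DMM replicate 3, level with DMM replicate 4 for Chil3, had 35.7 CPM for the neutrophil list, against 140.1 CPM. The part of neutrophil genes in the level of Chil3 was not tested. Among genes of alternative and classical activation, 0 of 20 tested were called over the 8 libraries and the median was -0.42, and -0.33 over 10.

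Siglec1 encodes sialoadhesin (CD169), a receptor for sialic acid on a subset of macrophages, and it is also a known interferon-induced gene of monocytes. In PBS replicates 1 to 5 it was at 176, 131, 133, 185 and 168 CPM, and in DMM replicates 1 to 5 at 151, 38.7, 36.4, 52.2 and 28.9 CPM. The kidneys of DMM replicates 2 to 5 lay far below all PBS kidneys, and DMM replicate 1 lay among them. Over the 8 libraries PBS kidneys averaged 165 ± 23.7 CPM (SD, n = 4) and DMM kidneys 39.0 ± 9.72 CPM (SD, n = 4), a log2 fold change of -2.08 (standard error 0.20, edgeR adjusted p = 0.000548). Averages of all 10 were 158 ± 24.8 CPM (SD, n = 5) for PBS and 61.4 ± 50.7 CPM (SD, n = 5) for DMM, with a log2 fold change of -1.37 (standard error 0.41, edgeR adjusted p = 0.378). Leaving out DMM replicate 1 alone gave -2.02 (edgeR adjusted p = 0.000217), and the adjusted p of the alternatives ranged from 0.000217 to 0.702 for the 10 libraries and from 3.46e-20 to 0.0605 for the 8. Its raw counts were between 475 and 3473, and 0.0852% of its 100-base transcript stretches occur in another gene.

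The genes whose pattern was most like that of Siglec1 were Ifit1, Parp9 and Znfx1, with Pearson's r of 0.998, 0.998 and 0.998 of log2 CPM across the 10 libraries. For Ly6c2 they were Tdrd7 (0.984), Nfxl1 (0.975) and Crlf3 (0.975). These values describe the libraries, in which the gap between DMM replicates 2 to 5 and the rest weighs heavily. Ifit1, a gene switched on by type I interferon, was at 464, 303, 330, 511 and 454 CPM in PBS and at 366, 30.6, 28.2, 47.0 and 20.8 CPM in DMM replicates 1 to 5. The order of the kidneys was that of Siglec1, with DMM replicate 4 the highest of the low DMM kidneys for both. In the list of interferon response genes all 27 that were tested were called lower over the 8 libraries, with a median log2 fold change of -2.86, and of -1.77 over 10 libraries. The summed level of the list was 8074, 5056, 6012, 7869 and 7756 CPM in PBS and 6189, 1181, 1035, 940 and 889 CPM in DMM replicates 1 to 5, with Lgals3bp as the most abundant gene and no gene at 0 in all libraries. This list was drawn up after earlier results of these data had been seen. Its 27 calls therefore describe the list and are not a test of it. By the same rule, 3.56% of all genes passed as lower in the 8 libraries. The part of the interferon response list in the difference of Siglec1 and Ly6c2 was not tested. Of the 7 other tested genes of the SIGLEC family, 2 were called lower over the 8 libraries, Cd22 and Mag, with log2 fold changes of -1.79 and -1.83, and the median of the family was -0.92 over 8 libraries and -0.59 over 10.

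Promoters are shown because interferon response genes were called lower over the 8 libraries, as Ly6c2 and Siglec1 were. RefSeq promoter windows (GRCm38.p6, 250 bases before to 50 after the start) were found for 7 of the 9 members, with 9 windows in all, and not for Siglec1 and Fabp5. The core of the interferon-stimulated response element, GAAA followed by any 2 bases and again by GAAA, was searched on both strands. It occurs in 3.44% of 32851 windows of the same length, in 12 of 22 windows of the interferon response list (54.5%) and in 1 of the 9 member windows, that of Spp1. The letters TTCNNNGAA, bound by STAT dimers, occur in 8.30% of all windows and in 1 member window, that of Chil3, and the E-box CACGTG in 7.15% of all windows and in 0 member windows. A window counted as holding a motif or not, so overlapping matches did not add. Shown are the 250 bases before the start of Ly6c2 (chr15:75111972-75112221, minus strand), of Spp1 (chr5:104434861-104435110, plus strand) and, for comparison, of Ifit1 (chr19:34640639-34640888, plus strand), with matches to this core on either strand in capitals.
Ly6c2: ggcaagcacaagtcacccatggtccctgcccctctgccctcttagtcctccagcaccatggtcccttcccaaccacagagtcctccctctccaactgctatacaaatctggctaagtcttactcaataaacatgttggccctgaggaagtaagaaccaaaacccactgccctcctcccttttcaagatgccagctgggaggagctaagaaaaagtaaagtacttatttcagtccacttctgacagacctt
Spp1: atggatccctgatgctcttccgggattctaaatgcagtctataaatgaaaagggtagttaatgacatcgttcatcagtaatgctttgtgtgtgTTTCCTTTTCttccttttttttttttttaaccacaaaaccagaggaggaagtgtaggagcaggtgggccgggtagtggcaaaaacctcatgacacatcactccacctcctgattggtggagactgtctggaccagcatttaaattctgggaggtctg
Ifit1: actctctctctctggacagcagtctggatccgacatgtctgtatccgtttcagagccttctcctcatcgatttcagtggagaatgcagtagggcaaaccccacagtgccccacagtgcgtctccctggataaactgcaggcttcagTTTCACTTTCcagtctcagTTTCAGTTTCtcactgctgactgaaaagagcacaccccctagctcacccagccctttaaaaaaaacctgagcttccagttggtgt
The stretch of Ly6c2 holds no match, that of Spp1 holds 1 match that begins 157 bases before the start, and that of Ifit1 holds 2 matches. A match is a run of letters and not a measured binding site, and its absence from a window of this length says nothing about the factor.

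Spp1 encodes osteopontin, a secreted phosphoprotein that binds integrins and CD44, draws in macrophages and is made in large amounts by stressed tubular epithelium. It was the most abundant of the 9 genes by far and took between 1.102% and 1.78% of all counts in each library. Its levels were 11386, 12983, 11039, 15776 and 13167 CPM in PBS replicates 1 to 5 and 13507, 16524, 17926, 16936 and 14133 CPM in DMM replicates 1 to 5. DMM replicates 2, 3 and 4 lay above every PBS kidney, while DMM replicates 1 and 5 lay within the PBS range. DMM over PBS gave a log2 fold change of 0.30 over 10 libraries (standard error 0.16, edgeR adjusted p = 0.513) and 0.30 over 8 (standard error 0.16, edgeR adjusted p = 0.323), a difference that did not pass the test. Of its 100-base transcript stretches, 5.85% occur in Gm42793, a gene annotated on the same strand over the same region. Among osteopontin receptors and the enzymes that process it, 14 genes were tested, and Itga5 and Mmp7 were called lower from the 8 libraries, with log2 fold changes of -0.86 and -0.67. The receptor Cd44 reached 347 CPM in DMM replicate 4 and lay between 83.3 and 198 CPM in every other kidney, and it was not called, with a log2 fold change of 0.07 over 8 libraries and 0.18 over 10.

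Gpnmb encodes a membrane glycoprotein of lipid-laden macrophages whose expression follows lysosomal stress. It was at 17.5, 6.06, 7.08, 10.7 and 9.59 CPM in PBS replicates 1 to 5 and at 20.3, 3.84, 2.78, 2.66 and 6.38 CPM in DMM replicates 1 to 5. The highest kidney of all was DMM replicate 1, and apart from it the DMM kidneys lay at or below the lower end of the PBS range, with DMM replicate 5 just above PBS replicate 2. The log2 fold change was -0.50 over 10 libraries (standard error 0.56, edgeR adjusted p = 0.720) and -1.49 over 8 (standard error 0.38, edgeR adjusted p = 0.0512), so that Gpnmb stood close to the threshold over the 8 libraries without passing it. DESeq2 on the same 8 libraries called it lower, at -1.49 with an adjusted p of 0.00291, and so did edgeR with no filter (adjusted p = 0.0434) and with at least 50 counts in 4 libraries (adjusted p = 0.0476). Over all alternatives on those libraries the adjusted p ranged from 0.00291 to 0.358. Genes of the MiT/TFE family and the lysosome, a family of factors known to switch on Gpnmb, gave 1 call in 17 tested genes, the macrophage marker Cd68, and a median log2 fold change of -0.03 in both sets.

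Trem2 encodes the lipid-sensing receptor that gives its name to TREM2-positive macrophages, and it signals through the adaptor Tyrobp. Its values were 8.79, 14.5, 5.79, 12.8 and 11.0 CPM in PBS replicates 1 to 5 and 14.4, 10.4, 7.93, 4.71 and 9.85 CPM in DMM replicates 1 to 5. The groups overlapped almost fully: the highest kidneys were PBS replicate 2 and DMM replicate 1 and the lowest PBS replicate 3 and DMM replicate 4. The log2 fold change was -0.16 over 10 libraries (standard error 0.31, edgeR adjusted p = 0.838) and -0.52 over 8 (standard error 0.27, edgeR adjusted p = 0.307), and without DMM replicate 4 it was 0.0071 and -0.33. Tyrobp was at 55.6, 50.2, 44.3, 56.0 and 57.1 CPM in PBS and at 50.5, 36.2, 28.1, 10.2 and 33.6 CPM in DMM replicates 1 to 5, and its groups did not overlap over the 8 libraries. It was not called, with a log2 fold change of -1.02 (edgeR adjusted p = 0.103) over the 8 libraries and -0.73 over 10 (edgeR adjusted p = 0.436). Of the genes that carry the TREM2 signal, 4 of 14 tested were called lower over the 8 libraries, among them Ptpn6 and Vav1 at -0.77 and -0.73, and the median was -0.75 over 8 libraries and -0.54 over 10.

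Fabp5, a carrier of fatty acids in macrophages and epithelium, was at 9.37, 14.4, 12.6, 20.6 and 14.8 CPM in PBS replicates 1 to 5 and at 12.7, 7.50, 6.57, 6.77 and 12.6 CPM in DMM replicates 1 to 5. DMM replicates 2, 3 and 4 lay below every PBS kidney, and DMM replicates 1 and 5 lay inside the PBS range. Fabp5 had a log2 fold change of -0.64 over 10 libraries (standard error 0.26, edgeR adjusted p = 0.428) and -0.82 over 8 (standard error 0.29, edgeR adjusted p = 0.137), and was not called in either set. A share of 2.19% of its 100-base transcript stretches also occurs in other genes, all of it in Gm6166. Of the other fatty acid-binding protein genes 3 were expressed highly enough to be tested, and none was called, with a median log2 fold change of 0.19 over 8 libraries and 0.15 over 10.

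Cd9 encodes a tetraspanin that organises membrane proteins in macrophages, platelets and tubular epithelium. It was at 182, 195, 172, 206 and 199 CPM in PBS replicates 1 to 5 and at 206, 188, 183, 57.5 and 177 CPM in DMM replicates 1 to 5. Of these kidneys 9 lay within a narrow band that both groups shared, and DMM replicate 4 stood alone far beneath it. The log2 fold change was -0.23 over 10 libraries (standard error 0.27, edgeR adjusted p = 0.736) and -0.37 over 8 (standard error 0.32, edgeR adjusted p = 0.549). Without DMM replicate 4 it was -0.02 over the remaining 9 libraries and -0.10 over the remaining 7. The gene overlaps Gm28809 on the opposite strand, and whether counting took the strand into account is not given in the sources used here. Of 10 other tetraspanin genes none was called, with a median log2 fold change of -0.12 over 8 libraries and -0.07 over 10.

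Lgals3 encodes galectin-3, a sugar-binding protein of macrophages and injured tubules that promotes fibrosis. Its values were 155, 132, 138, 174 and 158 CPM in PBS replicates 1 to 5 and 164, 137, 135, 82.5 and 135 CPM in DMM replicates 1 to 5. The groups overlapped, and DMM replicate 4 was again the lowest kidney, with the other DMM kidneys inside the PBS range. For galectin-3 the log2 fold change was -0.21 over 10 libraries (standard error 0.17, edgeR adjusted p = 0.611) and -0.34 over 8 (standard error 0.18, edgeR adjusted p = 0.314). Leaving out DMM replicate 4 gave -0.085 over 9 libraries and -0.19 over 7. Among genes listed with it, Lgals9 was called lower over the 8 libraries with a log2 fold change of -1.73, and Lgals3bp, the galectin-3-binding protein that is itself interferon-induced, with -2.19. These were 2 of 7 tested genes, and the median of the family was -0.40 over 8 libraries and -0.28 over 10.

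**Figure D2:**
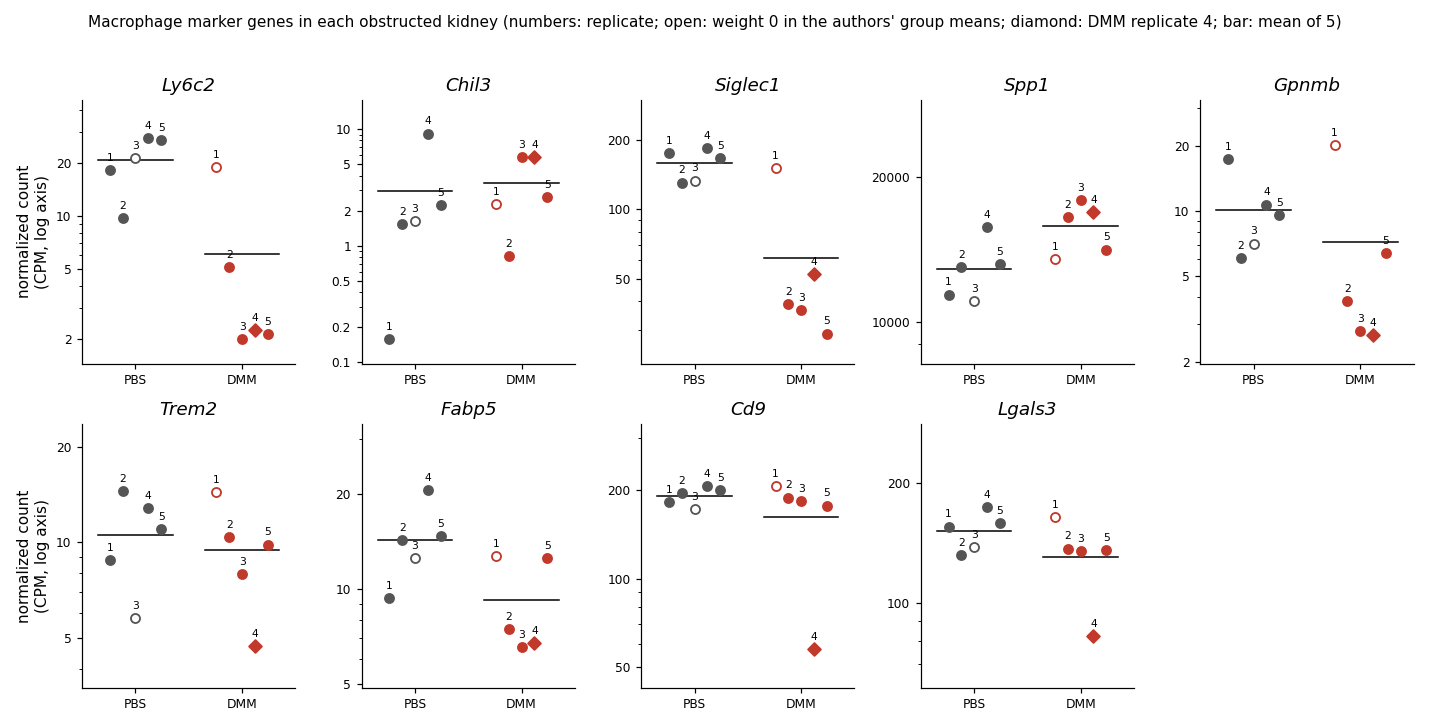
Normalized count (CPM, log axis) of the 9 genes in each PBS and DMM kidney, numbered by replicate, with bars for the mean of 5 kidneys, open symbols for the libraries of weight 0 in the authors' group means and a diamond for DMM replicate 4. For Ly6c2 and Siglec1 DMM replicates 2 to 5 lie below all PBS kidneys, and for Cd9 DMM replicate 4 lies alone at 57.5 CPM.

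Levels were compared between genes as RPKM, which is CPM per kilobase of the deposited gene length. In PBS kidneys the mean was 7810 ± 1139 (SD, n = 5) RPKM for Spp1, 93.5 ± 6.68 for Cd9, 81.6 ± 9.02 for Lgals3, 22.2 ± 3.48 for Siglec1 and 7.57 ± 2.68 for Ly6c2. It was 4.02 ± 1.15 RPKM for Fabp5, 2.14 ± 0.693 for Trem2, 1.80 ± 2.18 for Chil3 and 1.56 ± 0.688 for Gpnmb. In every PBS kidney Spp1 was above Cd9, Cd9 above Lgals3, Lgals3 above Siglec1 and Siglec1 above Ly6c2, and Fabp5 was above Trem2, while the order of the other neighbours differed between kidneys. In DMM kidneys the means were 9590.5 ± 1150.1 RPKM for Spp1, 79.5 ± 29.2 for Cd9, 70.4 ± 15.95 for Lgals3, 8.60 ± 7.09 for Siglec1 and 2.22 ± 2.68 for Ly6c2 (SD, n = 5). The genes with the highest levels, Spp1, Cd9 and Lgals3, are among those that tubular cells also express. Trem2 and Gpnmb, which are more restricted to macrophages, were among the lowest. Fabp5, which epithelium also makes, had a lower mean than Siglec1 and Ly6c2 in PBS kidneys. The cell source of these levels was not tested.

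The 9 genes did not vary as a block. Across the 10 libraries, 2 of 36 pairs of members had a Pearson's r of log2 CPM above 0.8, and 13 pairs had an r below 0, with a median of 0.510. The closest pair was Ly6c2 with Siglec1, at 0.940, followed by Cd9 with Lgals3, at 0.925. Spp1 had an r of -0.644 with Ly6c2, -0.633 with Siglec1, -0.666 with Gpnmb, -0.335 with Cd9 and -0.370 with Lgals3. Without DMM replicate 4 the value for Ly6c2 with Siglec1 was 0.953 and that for Cd9 with Lgals3 was 0.693. Trem2 with Cd9 rose from 0.752 to 0.856, the second closest pair without that kidney, and Trem2 with Lgals3 fell from 0.718 to 0.390. Spp1 then stood at -0.575 with Ly6c2, -0.601 with Siglec1, -0.597 with Gpnmb, 0.261 with Cd9 and -0.0806 with Lgals3, and 8 pairs were below 0, with a median of 0.405. The values of Spp1 with Cd9 and Lgals3 thus lean on that kidney. All of these describe 10 or 9 libraries that share a treatment contrast, and no test was made of them.

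The genes most like the other members were of several kinds. Trem2 was followed most closely by the basement membrane collagen gene Col4a2 (r of 0.958 over 10 libraries), Lmna (0.948) and Impdh1 (0.945), and Fabp5 by Itgbl1 (0.944), Fam198a (0.933) and the interstitial proteoglycan gene Lum (0.926). Cd9 was followed by Gnb2 (0.999), Sf3b4 (0.995) and Erp29 (0.995), and Lgals3 by Pdlim3 (0.986), Lfng (0.982) and Stard3nl (0.982). Gnb2 shows what the match to Cd9 consists of, with 122 CPM in DMM replicate 4 and 262 to 299 CPM in every other kidney. For Spp1 the closest were Prss12 (0.931), Hars (0.928) and Umps (0.921), for Gpnmb Gm17435 (0.966), Foxs1 (0.930) and Tmem248 (0.928), and for Chil3 Adam9 (0.918), Gm18541 (0.894) and P4hb (0.888). None of the genes named here as most alike belongs to the monocyte or macrophage lists.

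General macrophage genes were set beside the members. The pan-macrophage list was put together here and also holds genes that other leukocytes express, such as Ptprc. It had 8 of 18 tested genes called lower and 0 higher over the 8 libraries. Its median log2 fold change was -0.83 over 8 libraries and -0.61 over 10. Its summed level was 3244, 3193, 2674, 3059.7 and 3462 CPM in PBS and 3107.5, 2083, 1632, 1949 and 1697 CPM in DMM replicates 1 to 5, with Lyz2 as the most abundant gene and no gene at 0 in all libraries. DMM replicates 2 to 5 were again below every PBS kidney, by a smaller margin than for Siglec1. Among its genes Cd68 was called lower at -0.97 (edgeR adjusted p = 0.0108), while Csf1r at -0.37 (edgeR adjusted p = 0.0666) and Adgre1 at -0.65 (edgeR adjusted p = 0.0959) were not. With all 10 libraries these values were -0.72, -0.27 and -0.61, with edgeR adjusted p of 0.378, 0.422 and 0.378. The resident macrophage list had 3 of 13 tested genes called lower over the 8 libraries and a median of -0.74, and of -0.50 over 10. The wider lipid- and scar-associated programme had 5 of 29 called lower, Axl and Npc2 among them, and 2 higher, Cd36 and Atp6v0d2. Over the 8 libraries Cd36 was at 0.84 and Atp6v0d2, also in the distal tubule and collecting duct list, at 0.63. The median of the programme was -0.24 over 8 libraries and -0.20 over 10. DMM replicate 4 was the lowest kidney for the summed level of the resident list, at 1250 CPM, and of the programme, at 7825.5 CPM. The medians of these lists without that kidney were not computed.

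To set the members beside the pan-macrophage list of the same kidney, each was divided by its summed CPM, a description chosen after seeing the data. That list is not limited to macrophages. Per 100 CPM of that list, Siglec1 stood at 5.10 ± 0.828 (SD, n = 4) in PBS and 2.12 ± 0.435 (SD, n = 4) in DMM kidneys of the 8 libraries, and Ly6c2 at 0.637 ± 0.264 and 0.152 ± 0.0625. For both genes the groups still did not overlap, with DMM lower. The share of all tested genes without overlap by this measure was not computed. Trem2 stood at 0.366 ± 0.0859 and 0.452 ± 0.146, Fabp5 at 0.460 ± 0.160 and 0.463 ± 0.187, and Gpnmb at 0.339 ± 0.148 and 0.217 ± 0.108, with overlapping groups. Cd9 stood at 6.06 ± 0.505 and 8.41 ± 3.75, Lgals3 at 4.80 ± 0.650 and 6.76 ± 1.84, and Chil3 at 0.104 ± 0.132 and 0.210 ± 0.140, also with overlap. For Trem2, Cd9 and Lgals3 the overlap comes from DMM replicate 4 alone, at 0.242, 2.95 and 4.23, while DMM replicates 2, 3 and 5 lay above the 4 PBS kidneys. Spp1 stood at 413 ± 71.8 and 898 ± 137, and its groups did not overlap over the 8 libraries, with DMM higher. DMM kidneys were at 793 to 1098 and PBS kidneys at 351 to 516. DMM replicate 1, which is not among the 8, lay within that PBS range, at 435. The divisor itself was 3059.7 to 3462 CPM in PBS and 1632 to 2083 CPM in DMM kidneys of the 8 libraries, so that a gene with 1 level in all kidneys would stand higher in DMM by this measure. Among all 10 libraries Siglec1 stood at 5.07 ± 0.719 (SD, n = 5) in PBS and 2.66 ± 1.28 (SD, n = 5) in DMM, where DMM replicate 1 was at 4.85.

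**Figure D3:**
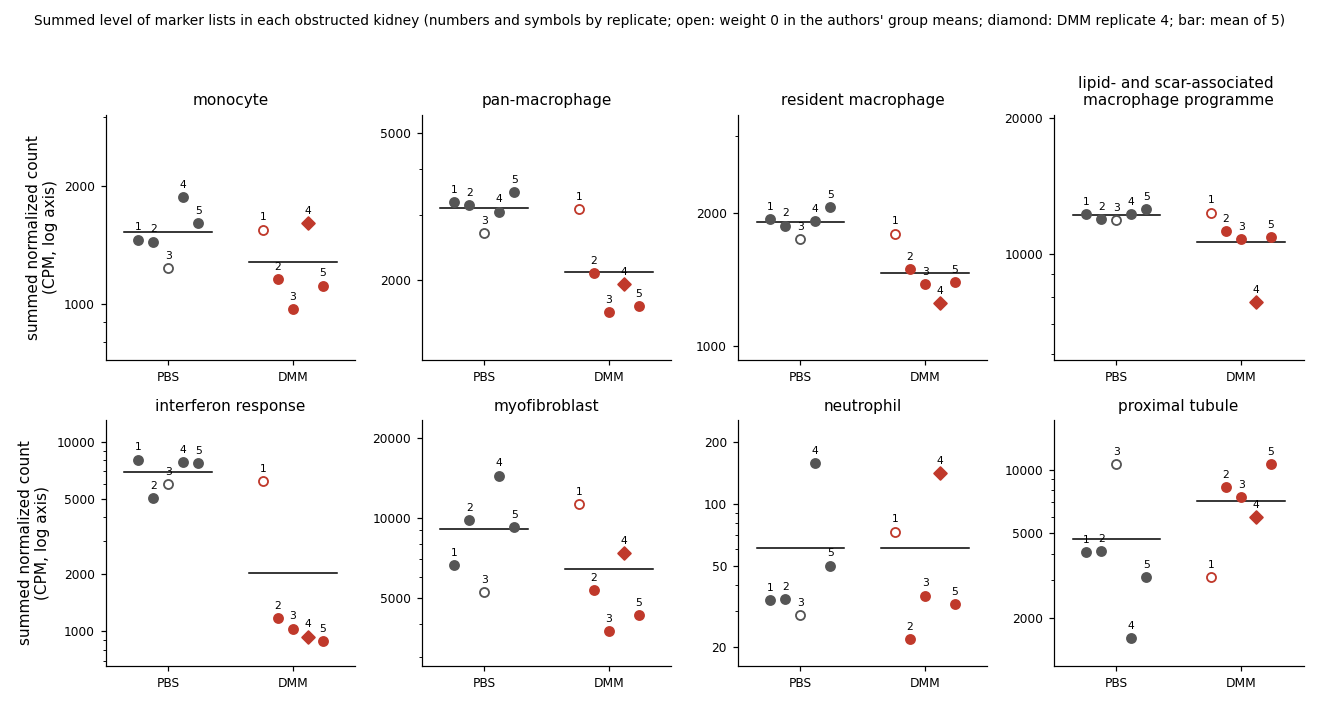
Summed normalized count (CPM, log axis) of marker lists in each PBS and DMM kidney, numbered by replicate, with bars for the mean of 5 kidneys, open symbols for the libraries of weight 0 in the authors' group means and a diamond for DMM replicate 4. The interferon response list shows the widest gap, from 889 CPM in DMM replicate 5 to 8074 CPM in PBS replicate 1, and replicate 4 of both groups stands high for neutrophil genes, at 157 and 140.1 CPM.

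Markers of other cells moved in these kidneys as well. Of 14 tested proximal tubule genes 6 were called higher from the 8 libraries, with a median log2 fold change of 1.52, and of 0.65 over 10. Its summed level was 4078, 4122, 10583, 1602 and 3097 CPM in PBS and 3119, 8256, 7439, 5962 and 10580.0 CPM in DMM replicates 1 to 5, with Kap as the most abundant gene. PBS replicate 3 and DMM replicate 1, the libraries of weight 0, thus lay on the other group's side for these genes, while for Ly6c2 and Siglec1 only DMM replicate 1 did. The injured tubule list, whose cells also make osteopontin and galectin-3, had 0 of 16 tested genes called and a median of -0.03 over 8 libraries and 0.10 over 10. The myofibroblast list had 3 of 10 called lower and a median of -0.82 over 8 libraries and -0.48 over 10. The part of these cells in the values of the 9 members was not tested.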

How the data were processed

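Bulk RNA-seq libraries of UUO kidneys, 1 per mouse, were grouped by the labels. The authors aligned reads to mm10 (HISAT2 2.0.5 in the submitters' processing notes) and deposited unnormalized counts per gene, whose counting tool and strand setting are not given in the sources used here. Deposited FPKM values, which are counts divided by a deposited gene length and an effective library size, were used only as a check. The deposited signal, which holds group means of scaled counts, served only to find which libraries entered it. The authors' own fold changes and p-values were not used. Columns of per-sample values left unused number 0.

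Counts were filtered by filterByExpr, scaled by TMM and tested by edgeR 4.0.16 in R 4.3.3, with Benjamini-Hochberg adjustment over all tested genes. DESeq2 1.42.0, other scalings and filters, the replicate number as a block and libraries left out in turn were the alternatives. Likeness used log2 CPM with a prior count of 2. A further gene is not reported here. The members and gene lists were chosen with earlier results of these data known. Named genes were the members, close paralogs, fixed partners and markers, the genes of smallest p in each list (3 over 10 libraries, 2 over 8), and the 3 genes most correlated with each member. Steps were tested on simulated counts.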

Additional observations from a re-analysis of the deposited data

Results flagged for a closer look

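In each of the 18 groups of 5 libraries, formed by 9 genes and both treatments, the highest or lowest value was set apart when its gap to the nearest other value took up more than 0.71 of the group's range (Dixon's 95% value). Chance sets apart about 1 group in 20 when groups are independent, and 5 values were set apart here. These groups share the same 10 libraries, and the share set apart among all tested genes was not computed. The count is therefore not a result about the members. DMM replicate 1 was far above the other DMM kidneys for Ly6c2, at 19.01 CPM, for Siglec1, at 151 CPM, and for Gpnmb, at 20.3 CPM. DMM replicate 4 was far below the other DMM kidneys for Cd9, at 57.5 CPM. PBS replicate 4 was far above the other PBS kidneys for Chil3, at 9.15 CPM. The 5 values thus came from 3 of the 10 libraries, DMM replicate 1, DMM replicate 4 and PBS replicate 4.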

How the results depend on the processing

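Counts of called genes depended on the libraries. Over all 10 libraries edgeR called 0 genes higher and 0 lower, DESeq2 14 and 36, and the 8 libraries 452 and 590. With a single library left out of the 10, the counts ranged from 0 to 50 higher and from 0 to 436 lower, the highest values without DMM replicate 1. From the 8 libraries DESeq2 called 749 higher and 911 lower, and library size alone in place of TMM called 276 and 700 and moved the median log2 fold change of all tested genes from 0.02 to -0.09. With 1 of the 8 left out, the counts ranged from 131 to 1129 higher and from 276 to 1281 lower, lowest without PBS replicate 5 and highest without DMM replicate 4.

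Members called lower numbered 0 over the 10 libraries, 2 without DMM replicate 1 (beside 436 of 16760 tested genes) and 2 over the 8 libraries (590 of 16550). From the 8 libraries 3 were called by DESeq2 (911 of 30116), with no filter (549 of 30191), with at least 50 counts in 4 libraries (579 of 13542) and at an adjusted p under 0.1 (826 of 16550). With 1 of the 8 left out they ranged from 2 to 3, the highest without DMM replicate 4 (1281 of 16828) and without DMM replicate 5 (302 of 16891). No alternative called a member higher. Ly6c2 and Siglec1 kept their direction throughout, and over the 8 libraries both were called under each alternative but the replicate block.

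No pairing of mice by replicate number is given in the sources used here. Deviations of log2 CPM from the group mean correlated at -0.06, 0.079, 0.341, 0.124 and -0.223 between same-numbered libraries. By this measure 1 of 5 numbers matched its own best. These 5 values cannot settle whether the numbers pair the mice. With the replicate block, over the 3 numbers that both groups keep within the 8 libraries, 0 genes were called higher and 0 lower, 0 members were called, and the log2 fold changes were -2.75 for Ly6c2 (adjusted p = 0.171), -2.04 for Siglec1 (adjusted p = 0.0605) and -0.44 for Chil3, a turned sign. The block over all 10 libraries called 0 genes.

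Other turns of sign came from libraries left out. For Chil3 over the 10 libraries the values were -0.084 without PBS replicate 1, -0.041 without DMM replicate 3 and -0.038 without DMM replicate 4, within a range of -0.084 to 1.31. Over the 8 libraries they were -0.21 and -0.051 without PBS replicates 1 and 2 and -0.103 and -0.095 without DMM replicates 3 and 4, within a range of -0.21 to 1.51. Trem2 over the 10 libraries ranged from -0.366 without DMM replicate 1 to 0.0071 without DMM replicate 4. The cause was not tested for any of these. Chil3 did not pass the filter of 50 counts in 4 libraries and has no value there. Depth limits the gene of fewest reads most, Chil3, with 3 reads in its lowest library.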

Other observations

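Lymphocytes and dendritic cells share the interstitium with macrophages. The T and NK cell list summed to 74.6, 70.2, 73.9, 64.0 and 108 CPM in PBS and to 67.7, 55.5, 23.7, 33.0 and 32.1 CPM in DMM replicates 1 to 5. Of its 14 tested genes, Cd4 was called lower over the 8 libraries, where 3.56% of all tested genes were, 13 had a negative log2 fold change, and the median log2 fold change was -1.12 over 8 libraries and -0.88 over 10. Of 8 tested dendritic cell genes, Ccr7 and Itgae were called lower, with log2 fold changes of -1.64 and -0.997 and a list median of -0.65 over 8 libraries and -0.47 over 10. Of 7 B and plasma cell genes none was called, with a median of -0.65 and -0.34. The most abundant gene of these lists was Cd4, Zbtb46 and Jchain, respectively.

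Segments beyond the proximal tubule had genes called higher over the 8 libraries, 3 of 6 in the loop of Henle list and 5 of 11 in the distal tubule and collecting duct list, with medians of 0.77 and 0.85, and of 0.48 and 0.52 over 10 libraries. The endothelium list, with a median of -0.04 over 8 libraries and 0.00 over 10, had 1 of 12 genes called lower, Ly6c1, which the Ly6 family list also holds. None of these lists had a gene called over all 10 libraries.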
